A study of Mus musculus with 13 samples.

Results

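The mitochondrial ribosomal protein genes were followed in the sciatic nerve of the mouse after a crush, with and without Raptor in Schwann cells (SCs). Members were the protein-coding genes whose symbol begins with Mrpl or Mrps and a number and that held at least 50 counts in at least 2 of the 13 libraries. The annotation lists 78 such symbols and all 78 reached that count, out of 40787 genes in the table and 12851 genes that reached it. Of the members, 51 encode proteins of the large and 26 of the small subunit. Mrps36 was kept apart from both, because its product is known as a component of the 2-oxoglutarate dehydrogenase complex. A protein at the same place in the bacterial ribosome is known for 46 members, which are called members with a bacterial counterpart, and the other 31 ribosomal members are called specific to mitochondria. Members lie on 17 chromosomes, none of them X or Y.

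Libraries were made from RNA of whole sciatic nerves stripped of the epineurium, so transcripts of SCs, fibroblasts, macrophages, and vascular cells are mixed. All mice were homozygous for a floxed Rptor allele and received tamoxifen when 2 months old. RaptorKO mice also carried a tamoxifen-inducible Cre directed to SCs, and controls had no Cre. The nerve of 1 side was crushed 2 months later, and the part distal to the crush and the contralateral uninjured nerve were collected at 5 dpc (days postcrush). Groups were control contralateral (n = 3), RaptorKO contralateral (n = 4), control injured (n = 3), and RaptorKO injured nerves (n = 3). Library totals ranged from 8200458 to 13581775 counts, the members took between 0.133% and 0.212% of them, and single members held between 32 and 1020 counts in a library. Values are CPM (counts divided by the library total and brought to a common scale) after scaling with the trimmed mean of M values (TMM). Rptor, which encodes Raptor, measured 43.9 to 52.7 CPM in control and 22.1 to 28.1 CPM in RaptorKO contralateral nerves, and 35.2 to 48.8 against 23.3 to 28.8 CPM in injured nerves, so the groups did not overlap on either side. The control libraries numbered 3 were the only ones with Xist counts of 14462 or more and had at most 20 Y-linked counts, whereas the other libraries had at least 1456 Y-linked counts. In bulk RNA, fewer cells of a type and less RNA per cell cannot be told apart.

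Mitochondria carry their own ribosomes, which translate the handful of membrane proteins of the respiratory chain and ATP synthase that mitochondrial DNA encodes. All protein components of these ribosomes are encoded in the nucleus, made on cytosolic ribosomes, and imported. mTORC1, the kinase complex that needs Raptor, is known to promote ribosome production and mitochondrial activity, in part by inhibiting the 4E-BP proteins, which block the initiation factor eIF4E. In the peripheral nerve, injury turns myelinating SCs into dividing repair cells and draws in macrophages.

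Levels of the members were compared per kilobase of the longest annotated transcript, as the mean over 13 libraries. Mrps21, a small-subunit protein with a bacterial counterpart, stood highest with 61.5 CPM per kilobase. Mrpl24 followed with 39.9 and Mrpl20 with 35.2 CPM per kilobase, and both belong to the large subunit. At the other end stood Mrpl19 with 2.17, Mrps35 with 2.69, and Mrpl1 with 2.77 CPM per kilobase. These values depend on the length that is used. With the union of all exons, Mrps21 remained first at 40.6 CPM per kilobase, but Mrpl20 moved to rank 19 with 17.1. The order of the members by CPM was similar in the 4 groups. Spearman's rho of the mean levels over the 78 members was 0.965 between control and RaptorKO contralateral nerves, 0.938 between control and RaptorKO injured nerves, and 0.904 between injured and contralateral controls, as a description across genes. Between injured and contralateral RaptorKO nerves rho was 0.895. It was 0.886 between RaptorKO contralateral and control injured nerves, and 0.88 between control contralateral and RaptorKO injured nerves. The median coefficient of variation of a member within a group was 8.27% in control contralateral, 15.5% in RaptorKO contralateral, 13.5% in control injured, and 10.2% in RaptorKO injured nerves.

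**Figure D1:**
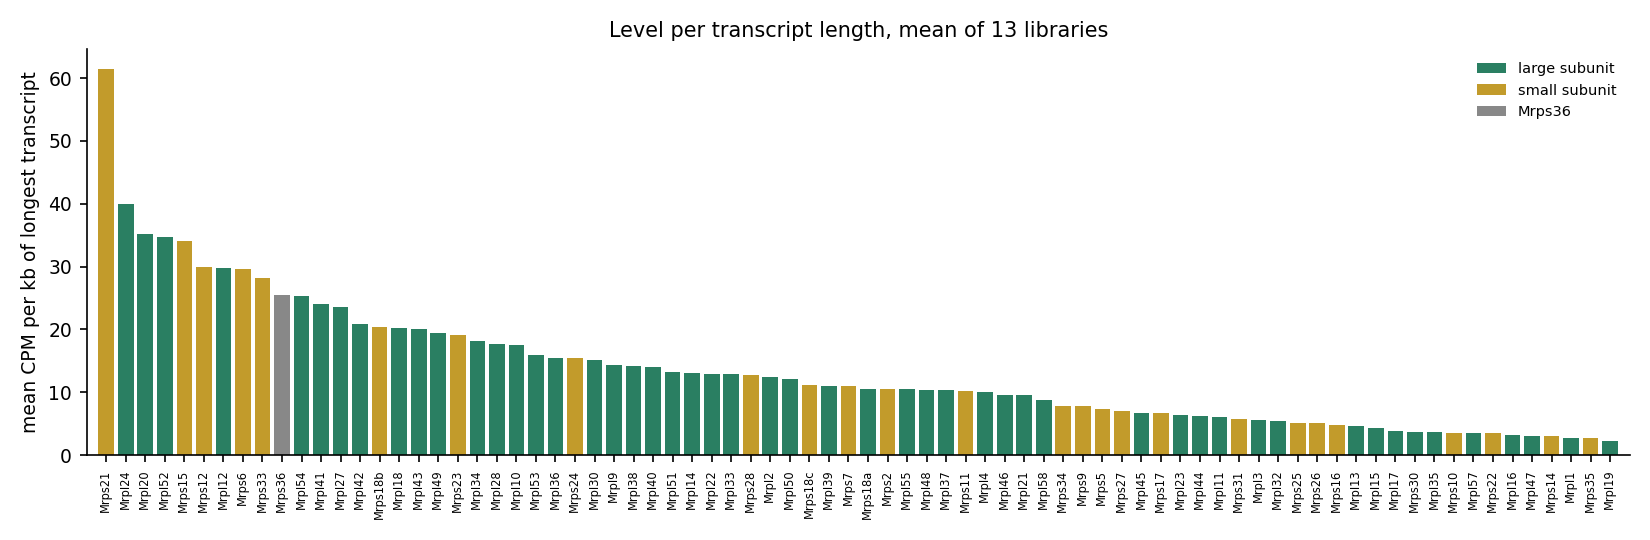
Bars give the level of each of the 78 members in CPM per kilobase of the longest annotated transcript, as the mean over 13 libraries, with the subunit in color. Mrps21 stands highest at 61.5 and Mrpl19 lowest at 2.17 CPM per kilobase, and members of both subunits are found along the whole order.

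Promoter windows from RefSeq (GRCm38.p6, 250 bases before to 50 after the annotated start) were found for 69 of the 78 members. They were searched on both strands for the ETS motif CCGGAAG, which GABP binds, for the NRF1 motif GCGCANGCG, for the YY1 motif AAGATGGCG, for the E-box CACGTG, which Myc binds, for the GC box GGGCGG, and for the near-palindrome CTCGCGAGA. The ETS letters were found in 36.2% of the members' windows and in 9.12% of all 27025 windows. The NRF1 letters were found in 23.2% against 6.47%, and the YY1 letters in 11.6% against 1.49%. At least 1 of these 3 motifs was held by 59.4% of the members' windows and by 15.3% of all windows. For the E-box the shares were 7.25% and 7.24%, for the GC box 49.3% and 35.9%, and for CTCGCGAGA 1.45% and 0.718%. Windows of 56 cytosolic ribosomal protein genes held the ETS letters in 39.3%, the NRF1 letters in 12.5%, and the YY1 letters in 5.36%. At least 1 of the 3 was held by 53.6% of these windows, near the share of the members. The median GC content was 58.3% in the members' windows, 57.5% in those of the cytosolic genes, and 52.7% in all windows. The set of all windows was not limited to genes measured in the nerve. A cytosine followed by 4 pyrimidines at the annotated start, the beginning of the mRNAs whose translation is known to depend most on mTORC1, was found in 0 of 69 members, in 12 of 56 cytosolic ribosomal protein genes, and in 2.49% of all windows. Annotated starts can lie some bases off the true ones. Below are the 120 bases before the annotated start of the 5 members on which the comparisons turn, from 5′ to 3′ on the strand of the gene, with ETS and NRF1 letters in capitals. Mrpl30 was the member called between genotypes, Mrpl22 and Mrpl34 rose most after injury in controls, Mrps18b rose most in RaptorKO nerves, and Mrpl48 fell in both.
Mrpl30 (chr1:37890357-37890476, plus strand): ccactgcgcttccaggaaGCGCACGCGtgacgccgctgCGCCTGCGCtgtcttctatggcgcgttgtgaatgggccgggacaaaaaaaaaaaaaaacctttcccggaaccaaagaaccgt
Mrpl22 (chr11:58171544-58171663, plus strand): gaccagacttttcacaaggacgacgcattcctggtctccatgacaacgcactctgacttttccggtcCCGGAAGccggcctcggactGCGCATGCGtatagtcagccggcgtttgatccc
Mrpl34 (chr8:71464806-71464925, plus strand): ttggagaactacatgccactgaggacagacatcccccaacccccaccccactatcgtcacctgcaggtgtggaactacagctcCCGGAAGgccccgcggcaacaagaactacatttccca
Mrps18b (chr17:35916441-35916560, minus strand): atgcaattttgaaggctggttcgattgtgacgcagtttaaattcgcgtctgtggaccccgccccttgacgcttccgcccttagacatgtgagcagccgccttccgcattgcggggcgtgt
Mrpl48 (chr7:100608302-100608421, minus strand): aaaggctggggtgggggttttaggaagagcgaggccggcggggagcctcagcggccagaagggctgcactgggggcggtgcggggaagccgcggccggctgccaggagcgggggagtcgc

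Mrpl30 holds the NRF1 letters at 2 places, Mrpl22 holds both motifs, and Mrpl34 holds the ETS letters. The stretches of Mrps18b and Mrpl48 hold none of the ETS, NRF1, YY1, E-box, or CTCGCGAGA letters, but the full window of Mrps18b holds the ETS and the NRF1 letters at 1 place each outside the stretch shown. GC box letters were not capitalized.

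The first question was whether loss of Raptor changes the members in the uninjured nerve. Between RaptorKO and control contralateral nerves, 1 of 78 members was higher (Mrpl30) and 0 were lower. A gene was called at a Benjamini-Hochberg adjusted p below 0.05 over all tested genes in edgeR's quasi-likelihood test with a fold change above 1.2. Of all 11878 tested genes, 4.49% were called higher and 5.68% lower. The median log2 fold change of the members was 0.06, beside 0.01 for all tested genes, and 49 of 78 members lay above 0 (62.8%, against 6180 of 11878 genes). An unadjusted p below 0.05 was reached by 5 members (6.41%), against 24.9% of all genes. The groups did not overlap for 6 members with higher and 2 with lower values in RaptorKO nerves, whereas 9.98% and 13.7% of all genes were separated in this way. The 95% confidence interval lay within a 1.5-fold change in either direction for 51 members and within a 2-fold change for all 78.

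Mrpl30 (ENSMUSG00000026087, chromosome 1, 37890477 to 37898535, GRCm38), a large-subunit protein with a bacterial counterpart, measured 16.4, 21.4, and 22.1 CPM in control and 28.5, 33.2, 33.3, and 32.4 CPM in RaptorKO contralateral nerves. Every RaptorKO nerve was above every control nerve. Its log2 fold change was 0.69 ± 0.13 (SE) with an adjusted p of 0.00944, and no annotated gene overlaps it. The call held without any 1 library, including control contralateral replicate 3. In injured nerves it measured 24.2 to 25 CPM in control and 26.6 to 28.6 CPM in RaptorKO nerves, a log2 difference of 0.18 ± 0.13 with an adjusted p of 0.498. Mrps6, a small-subunit protein, came next by p. It measured 43.2, 42.3, and 44.3 CPM in control and 37.8, 29.8, 29.6, and 23.2 CPM in RaptorKO contralateral nerves. The groups were apart, but the log2 fold change of -0.51 ± 0.14 had an adjusted p of 0.0504 and was not called. It was called lower under 4 other settings and without RaptorKO contralateral replicate 1, with adjusted p-values between 0.0152 and 0.15 over all alternatives. Mrps6 shares its locus and strand with Slc5a3, so their reads could be split between them. Mrpl52, of the large subunit, measured 20.1 to 21 CPM in control and 20.4 to 33.4 CPM in RaptorKO contralateral nerves, with a log2 fold change of 0.43 ± 0.16 and an adjusted p of 0.115. Its lowest RaptorKO nerve, replicate 4, lay among the controls. Without that nerve, 3 members were called higher, namely Mrpl30, Mrpl52, and Mrps7.

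The members and the genes of the cytosolic ribosome moved to different extents. Summed over the 78 members, control contralateral nerves measured 1516 to 1537 CPM and RaptorKO contralateral nerves 1413 to 1660 CPM, and the groups overlapped. Summed over 76 cytosolic ribosomal protein genes, the same nerves measured 15740 to 16910 and 28070 to 31500 CPM. The cytosolic sum was thus 10.4 to 11.1 times the sum of the members in control contralateral nerves and 18.1 to 19.9 times in RaptorKO contralateral nerves. In injured nerves this ratio was 15.1 to 15.7 in controls and 21.7 to 22.8 in RaptorKO. Each of the 4 groups was separate from the others. Of the cytosolic ribosomal protein genes, 73 of 76 were called higher in RaptorKO contralateral and 55 of 76 in RaptorKO injured nerves, with median log2 fold changes of 0.86 and 0.55. They also rose after injury, 71 of 76 in controls (93.4%, against 32.4% of all genes) and 57 of 76 in RaptorKO nerves (75%, against 30.5%). Their median log2 fold changes after injury were 0.79 and 0.49, beside 0.33 and 0.28 for the members. The ratio does not depend on how libraries are scaled.

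**Figure D2:**
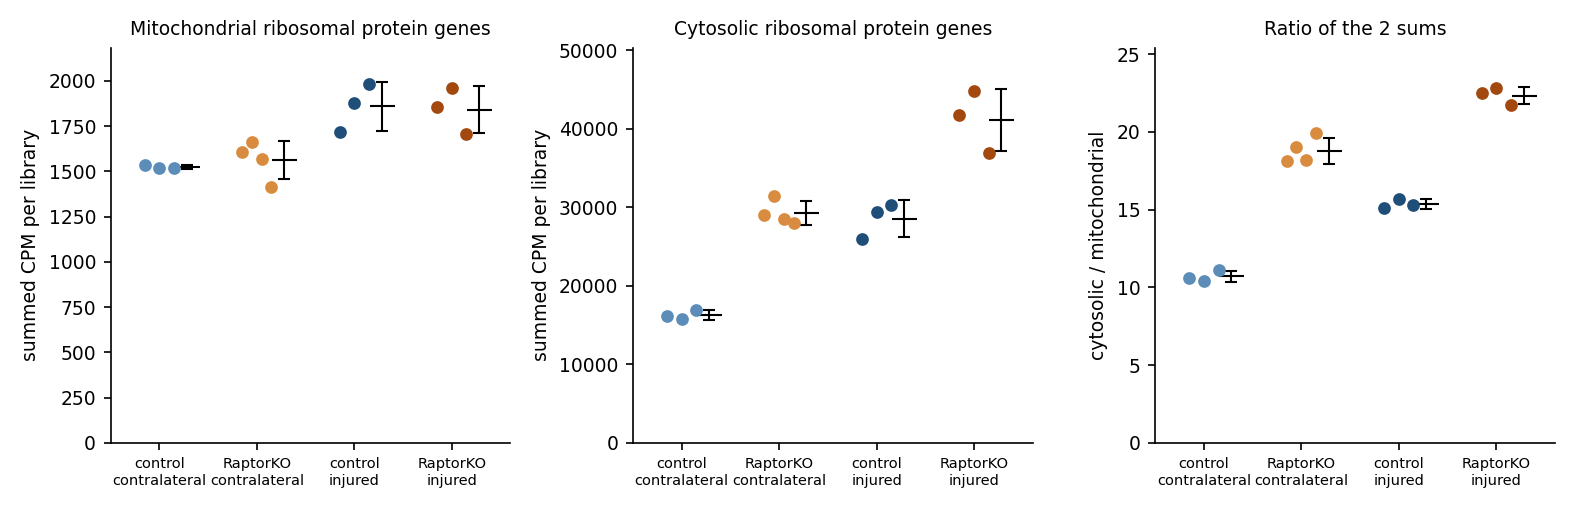
Points are libraries, with the sum over 78 mitochondrial (left) and 76 cytosolic (middle) ribosomal protein genes in CPM and the ratio of the sums (right), and bars give the mean and SD of each group. The mitochondrial sum of RaptorKO contralateral nerves (1413 to 1660 CPM) surrounds that of controls (1516 to 1537 CPM), whereas the ratio separates the 4 groups.

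In injured nerves, 0 of 78 members were called between RaptorKO and control in either direction, where 4.44% of 12040 tested genes were lower and 4.09% higher. DESeq2 called 0 as well, edgeR's exact test called 1, and an unadjusted p below 0.05 was reached by 8 members (10.3%, against 21.5% of all genes). The median log2 fold change of the members was -0.03, beside 0.00 for all genes, and 34 members lay above 0. The groups were separate for 5 members with lower and 8 with higher values in RaptorKO, against 14.6% and 11.7% of all genes. The interval lay within a 1.5-fold change for 47 members. The summed levels were 1716 to 1981 CPM in control and 1704 to 1962 CPM in RaptorKO injured nerves.

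The 3 members with the smallest p were Mrpl58, Mrps18b, and Mrps7, none of them called. Mrpl58, a peptidyl-tRNA hydrolase that frees stalled mitochondrial ribosomes, measured 23.6, 29.2, and 32.4 CPM in control and 18.5, 20.9, and 19 CPM in RaptorKO injured nerves. All RaptorKO nerves were below the controls, with a log2 fold change of -0.53 ± 0.16 and an adjusted p of 0.0727, and it was called lower under 3 of 16 alternatives, 1 of them without control injured replicate 1. Mrps18b measured 28, 24.3, and 20.4 CPM in control and 36, 36.2, and 28.1 CPM in RaptorKO injured nerves. Its log2 fold change was 0.48 ± 0.16, with an adjusted p of 0.0977, and it was called without RaptorKO injured replicate 3. Mrps7, which binds the RNA of the small subunit, measured 19.2, 23, and 23.9 against 30.9, 29.3, and 27.3 CPM, a log2 fold change of 0.42 ± 0.15 with an adjusted p of 0.114.

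Marker lists of other cells of the nerve differed between the genotypes. In contralateral nerves, 4 of 6 tested macrophage markers and 3 of 5 fibroblast markers were higher in RaptorKO. The summed macrophage markers measured 139 to 159 CPM in control and 221 to 292 CPM in RaptorKO contralateral nerves, and the fibroblast markers 4731 to 5642 and 7600 to 10430 CPM. In injured nerves, 6 of 10 markers of dividing cells were lower in RaptorKO, with sums of 1774 to 1952 CPM in control and 1136 to 1248 CPM in RaptorKO, and 6 of 6 endothelial markers were higher. Also higher in RaptorKO injured nerves were 4 of 5 pericyte and smooth muscle markers (median log2 fold change 1.17), 4 of 5 mast cell markers (2.33), 3 of 3 tested erythrocyte markers (2.27), and 2 of 5 fibroblast markers (0.69). In contralateral nerves, 2 of 5 mast cell markers (2.10) and 2 of 4 tested erythrocyte markers (0.89) were higher in RaptorKO, and 2 of 9 markers of myelinating SCs were lower on each side (-0.22 and -0.24). Skeletal muscle markers summed to at most 28.3 CPM in any library. Adipocyte markers were uneven. They summed to 286.4 CPM in RaptorKO contralateral replicate 3, 88.5 in control contralateral replicate 3, and 65.3 in control injured replicate 3. In the other libraries they summed to at most 31.9 CPM. The part of these cells in the levels of the members was not tested.

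**Figure D3:**
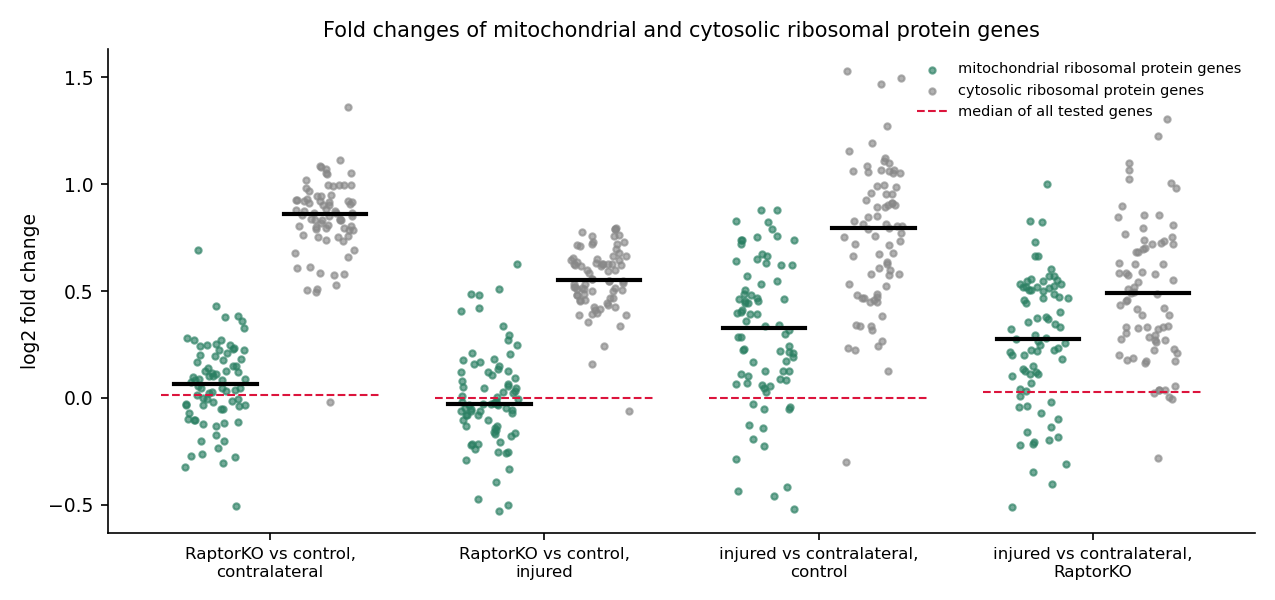
Each point is a gene, with its log2 fold change in 1 of 4 comparisons. Black bars are medians and dashed lines the median of all tested genes. Between genotypes the members center on medians of 0.06 and -0.03, beside 0.86 and 0.55 for the cytosolic ribosomal protein genes. After injury they center on 0.33 and 0.28, beside 0.79 and 0.49 for the cytosolic genes.

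The second question was how the members respond to the crush. In control nerves, 30 of 78 members rose after injury and 4 fell. Of 12430 tested genes, 32.4% rose and 32.9% fell, so that the share of members that rose (38.5%) was near the share of all genes and the share that fell (5.13%) was below it. The median log2 fold change of the members was 0.33, beside 0.00 for all genes, and 65 members lay above 0 (83.3%, against 49.9%). Values of injured and contralateral nerves did not overlap for 40 members that were higher and 6 that were lower after injury, against 36.2% and 34.7% of all genes. The summed level of the members went from 1516 to 1537 CPM in contralateral to 1716 to 1981 CPM in injured control nerves.

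Of the large subunit, 22 of 51 members rose (43.1%) and 2 fell, with a median log2 fold change of 0.36. Of the small subunit, 8 of 26 rose (30.8%, below the 32.4% of all genes) and 2 fell, with a median of 0.19. The difference between the subunits was not tested. Of members with a bacterial counterpart, 17 of 46 rose (37%) and 3 fell, and of members specific to mitochondria, 13 of 31 rose (41.9%) and 1 fell. The summed CPM of the large subunit was 1.93 to 2.05 times that of the small one in contralateral controls and 2.24 to 2.28 times in injured controls, without overlap. It was 1.93 to 2.08 times in contralateral and 2.05 to 2.15 times in injured RaptorKO nerves, which overlapped.

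The largest gains in controls were those of Mrpl22 and Mrpl34. Mrpl22, which lines the tunnel through which the new protein leaves, measured 5.85, 6.22, and 7.45 CPM in contralateral and 11.4, 15.6, and 9.64 CPM in injured nerves. Its log2 fold change was 0.88 ± 0.24 (SE, adjusted p = 0.00615). Mrpl34 measured 11, 7.45, and 7.35 CPM in contralateral and 15, 14.5, and 18.8 CPM in injured nerves (0.88 ± 0.22, adjusted p = 0.00383). For both, every injured nerve was above every contralateral nerve. Mrpl41 measured 15, 11.3, and 13.5 against 22.8, 23.9, and 25.1 CPM, with a log2 fold change of 0.83 ± 0.16 (adjusted p = 0.000624). Mrpl33, whose locus overlaps Rbks on the other strand, measured 24.6, 27.6, and 28.9 against 47.7, 42.3, and 56.2 CPM (0.83 ± 0.14, adjusted p = 0.000224). Mrps18a, which despite its name sits in the large subunit, Mrpl44, Mrpl18, and Mrpl57 followed with log2 fold changes of 0.79, 0.76, 0.75, and 0.74. The other 22 members that rose in controls did so by 0.32 (Mrpl24) to 0.74 (Mrpl20 and Mrpl19). All these p-values come from edgeR's quasi-likelihood test.

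The 4 members that fell in controls were Mrpl47, Mrps12, Mrps6, and Mrpl48. Mrpl48 measured 46.7, 53.9, and 47.9 CPM in contralateral and 37.5, 39, and 36.8 CPM in injured nerves, a log2 fold change of -0.42 ± 0.11 (adjusted p = 0.00533). Rab6a lies across its locus on the other strand. The library kit was a stranded one, but the sources used here do not give the strand setting of the counting. Mrps12, a protein of the decoding site, fell from 35.3, 27.2, and 30.1 to 19.6, 26.9, and 22 CPM (-0.46 ± 0.16, adjusted p = 0.023). Mrpl47 had a log2 fold change of -0.52 ± 0.20 (adjusted p = 0.0395) and Mrps6 of -0.43 ± 0.15 (adjusted p = 0.0215). With the mouse as a block, Mrpl47 was no longer called (-0.51, adjusted p = 0.0688). Under 16 alternatives, it lost its call in 10, Mrps12 in 6, Mrps6 in 5, and Mrpl48 in 1. Scaled to total counts, 50 members rose and 0 fell in controls, and the median of all tested genes moved from 0.00 to 0.20. The median of the members was then 0.53, which is 0.33 above that of all genes, as it was with TMM.

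In RaptorKO nerves, 27 of 78 members rose after injury and 2 fell, where 30.5% of 12515 tested genes rose and 28.5% fell. The median log2 fold change was 0.28 beside 0.03 for all genes, and 62 members lay above 0 (79.5%, against 51.5%). With the mouse as a block, 21 rose, 19 of them among the 27, and 3 fell. Groups did not overlap for 30 members that were higher and 3 that were lower, against 31.7% and 28.8% of all genes. Of the large subunit 21 of 51 rose (41.2%) and 1 fell, and of the small subunit 6 of 26 rose (23.1%) and 1 fell. Of members with a bacterial counterpart 20 of 46 rose (43.5%) and 0 fell, and of those specific to mitochondria 7 of 31 rose (22.6%) and 2 fell. In controls the order of these shares was the other way (37% and 41.9%), and the difference was not tested. Leaving out any 1 of the 7 nerves lowered the count of risen members, to between 12 and 25. The count was 12 without RaptorKO injured replicate 2 and 15 without RaptorKO injured replicate 1. Without RaptorKO contralateral replicate 3 or 4, the count was 16 or 17. Scaled to total counts it was 40, and 0 fell, with the median of all genes at 0.19.

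Mrps18b rose most. It is 1 of 3 members related in sequence to the bacterial protein S18. Mrps18c takes the place of S18 in the small subunit and is counted with the bacterial counterparts, whereas Mrps18b, in the small, and Mrps18a, in the large subunit, sit elsewhere and are counted as specific to mitochondria. Mrps18b measured 15.4, 20.1, 13.4, and 17.7 CPM in contralateral and 36, 36.2, and 28.1 CPM in injured RaptorKO nerves, a log2 fold change of 1.0 ± 0.17 (adjusted p = 0.000436). In controls it went from 18.7, 11.9, and 15.5 to 28, 24.3, and 20.4 CPM (0.63 ± 0.19, adjusted p = 0.0112). Mrps18a rose in both genotypes, by 0.79 ± 0.21 and 0.52 ± 0.17, and Mrps18c was called in neither (0.45 ± 0.25 and 0.07 ± 0.20). Mrpl54, Mrpl20, and Mrpl15 rose in RaptorKO nerves by 0.83 ± 0.20, 0.82 ± 0.19, and 0.73 ± 0.16. Mrpl20 measured 19.8, 25.6, 13.3, and 20.2 CPM in contralateral and 33.9, 37.3, and 33.8 CPM in injured RaptorKO nerves, without overlap. Mrpl34, Mrpl41, Mrpl16, and Mrpl52 followed with 0.67, 0.66, 0.60, and 0.57, and values of both sides overlapped for Mrpl16 and Mrpl52. Under 17 alternatives, Mrpl34 lost its call in 5, Mrpl16 in 7, and Mrpl52 in 3. With the mouse as a block, Mrpl16 was no longer called (0.57, adjusted p = 0.0621). The members that fell were Mrps31 (15.4 to 18.2 CPM in contralateral, 11.8 to 12.1 CPM in injured nerves, -0.51 ± 0.14, adjusted p = 0.0105) and Mrpl48 (47 to 53.5 and 37.1 to 42.6 CPM, -0.35 ± 0.11, adjusted p = 0.0174), and the call of Mrpl48 was lost in 5 of 17 alternatives. Mrps36, the member outside the ribosome, was called in no comparison.

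**Figure D4:**
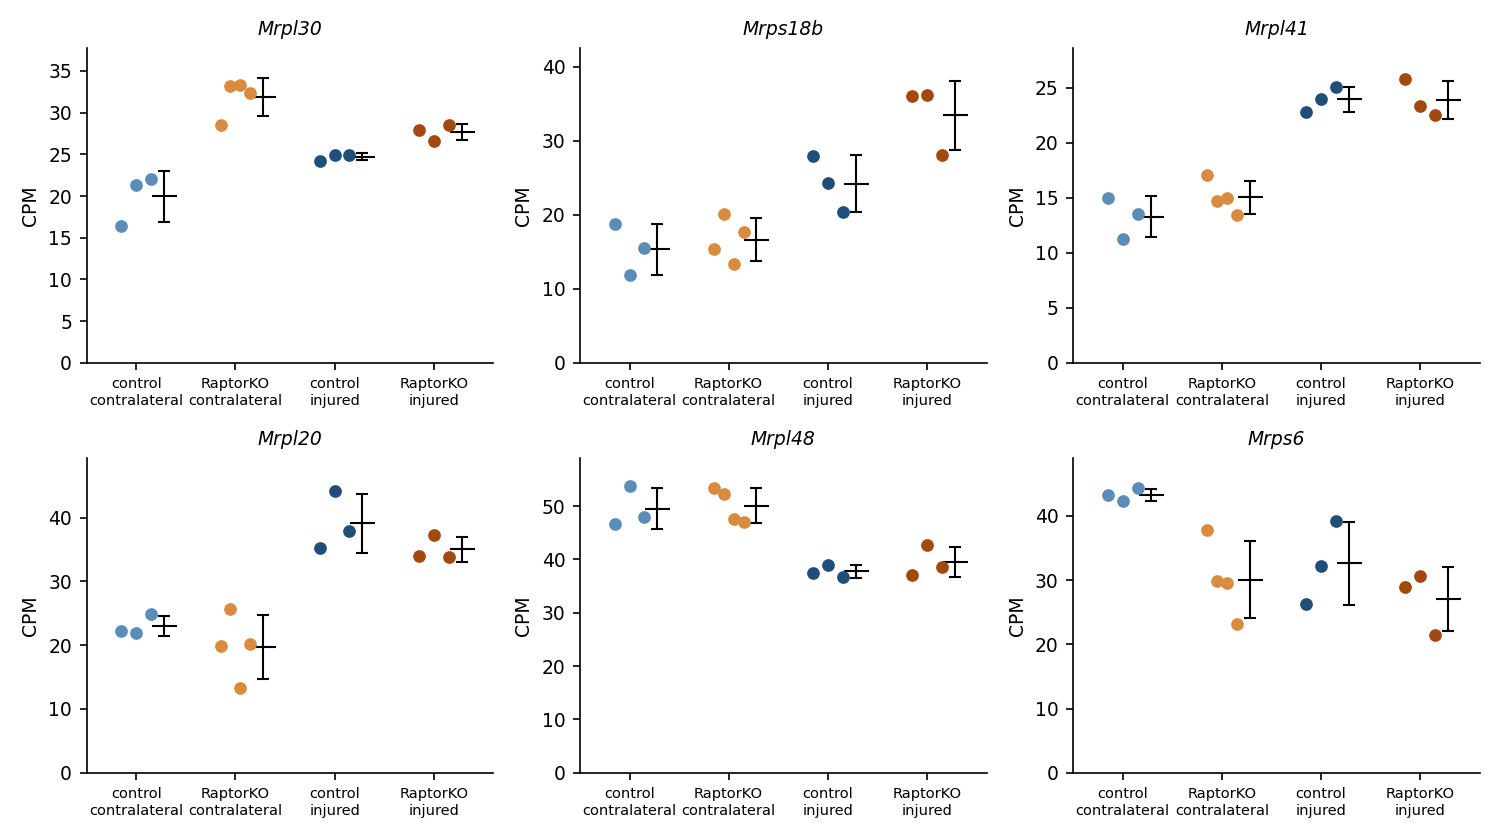
Points are the CPM of 6 members in each of 13 libraries, and bars the mean and SD of each group. Mrpl30 differs between genotypes in contralateral nerves (16.4 to 22.1 against 28.5 to 33.3 CPM), Mrps18b, Mrpl41, and Mrpl20 are higher and Mrpl48 lower in injured nerves of both genotypes, and Mrps6 is highest in control contralateral nerves.

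The injury comparisons of the 2 genotypes share no library and could be set side by side. Of the 30 members that rose in controls and the 27 that rose in RaptorKO nerves, 20 rose in both, which is 66.7% of the first and 74.1% of the second list. They were Mrpl12, Mrpl13, Mrpl15, Mrpl18, Mrpl20, Mrpl28, Mrpl32, Mrpl33, Mrpl34, Mrpl40, Mrpl41, Mrpl45, Mrpl52, Mrpl54, Mrps2, Mrps7, Mrps17, Mrps18a, Mrps18b, and Mrps28. Mrpl12 belongs to the stalk that recruits translation factors. Mrpl48 fell in both, no member was called in opposite directions, and 36 were called in neither. The sign of the log2 fold change was the same for 69 of 78 members, and Pearson's r over the members was 0.738 as a description across genes. Of all tested genes, 32.4% rose in controls and 30.5% in RaptorKO nerves. The overlap and the agreement in sign were not computed over all genes. Whether the members exceed other genes in this was therefore not tested. The difference between the injury responses was tested as an interaction. It was called for 0 of 78 members in either direction in edgeR's quasi-likelihood test and in DESeq2, where 1.41% of 12851 genes were called with a lower and 1.07% with a higher response in RaptorKO nerves, and 3 members had an unadjusted p below 0.05. These were Mrpl30 (-0.51, 95% interval -0.88 to -0.14, adjusted p = 0.166), Mrps10 (0.61, 0.06 to 1.15, adjusted p = 0.281), and Mrpl53 (-0.62, -1.20 to -0.04, adjusted p = 0.308). The interval of the interaction lay within a 1.5-fold change for 24 of 78 members and within a 2-fold change for 71. For the other members, differences beyond these sizes lay within the interval.

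**Figure D5:**
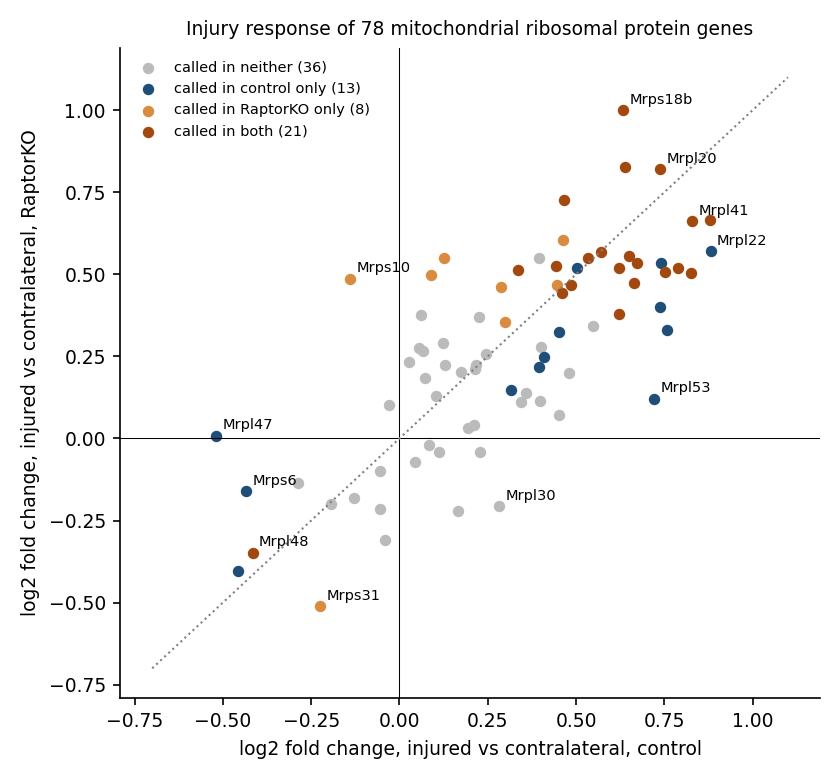
Each point is 1 of 78 members, with its log2 fold change from contralateral to injured nerves in controls (x axis) and RaptorKO (y axis), and the dotted line marks equal values. Of the members, 21 were called in both genotypes, 13 only in the control and 8 only in the RaptorKO comparison, and 36 in neither.

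The make-up of the nerve changed with injury. All 8 macrophage and all 10 dividing-cell markers rose in both genotypes. The macrophage markers summed to 139 to 159 CPM in contralateral and 2478 to 3063 CPM in injured controls, and to 221 to 292 and 1564 to 3288 CPM in RaptorKO nerves. Dividing-cell markers summed to 85.6 to 103 CPM in contralateral and 1774 to 1952 CPM in injured controls. Markers of myelinating SCs fell, 9 of 9 in controls and 8 of 9 in RaptorKO nerves, from at least 73400 CPM to at most 4478 CPM in sum. The part of these shifts in the gain of the members was not tested.

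Proteins that work with the mitochondrial ribosome were read from hand-written lists. The 5 other proteins of the mitoribosome, Dap3, Ptcd3, Chchd1, Aurkaip1, and Gadd45gip1, were called in neither genotype comparison. In contralateral nerves, 2 of the 5 had an unadjusted p below 0.05 (40%, against 24.9% of all genes). The groups did not overlap for 2, both higher in RaptorKO, and the median log2 fold change was 0.25, beside 0.06 for the members. In injured nerves 0 of the 5 reached an unadjusted p below 0.05, with a median of 0.09. Dap3, a GTP-binding protein of the small subunit, rose after injury in controls (0.47, adjusted p = 0.0318) and in RaptorKO nerves (0.34, adjusted p = 0.0277), and Aurkaip1 rose in controls (0.43, adjusted p = 0.038). Ptcd3, Chchd1, and Gadd45gip1 had log2 fold changes of 0.28, 0.12, and 0.18 in controls and 0.10, 0.43, and 0.22 in RaptorKO nerves and were not called. Of 17 tested genes listed as mitochondrial translation factors, C1qbp was higher and Letm1 lower in RaptorKO contralateral nerves. Each is 5.88% of the list, near the 4.49% and 5.68% of all genes called higher and lower. C1qbp, a matrix protein known to be needed for mitochondrial translation, measured 24.4 to 33 CPM in control and 37.3 to 47.7 CPM in RaptorKO contralateral nerves (0.58 ± 0.14, adjusted p = 0.0238), and 42.6 to 54.1 against 64.2 to 65.6 CPM in injured nerves (0.45 ± 0.12, adjusted p = 0.0397). Groups did not overlap on either side. Letm1 measured 45.2 to 46.6 and 33.5 to 37.9 CPM in contralateral nerves (-0.34 ± 0.09, adjusted p = 0.0464). After injury, 4 of 18 listed genes rose (22.2%) and 3 fell (16.7%) in controls. In RaptorKO nerves, 7 rose (38.9%) and 2 fell (11.1%). Of all tested genes, 32.4% rose and 32.9% fell in controls, and 30.5% rose and 28.5% fell in RaptorKO nerves. The elongation factor Tufm rose by 0.72 and 0.51 and Tsfm by 0.95 and 1.34, whereas the initiation factor Mtif3 fell by 0.78 and 0.83 on the log2 scale. Of 20 mitochondrial aminoacyl-tRNA synthetases and of 26 or 27 tested assembly factors, 0 were called between genotypes, with unadjusted p below 0.05 for 1 and 2 in contralateral and for 1 and 0 in injured nerves. After injury, 4 of the synthetases rose (20%) and 1 fell (5%) in controls, and 3 of the assembly factors rose (11.5%) and 5 fell (19.2%). In RaptorKO nerves, 2 synthetases rose and 2 fell (10% each), and 4 assembly factors rose and 4 fell (15.4% each).

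The products of mitochondrial ribosomes are encoded by mitochondrial DNA. In contralateral nerves, mt-Nd2, mt-Nd4l, mt-Nd4, and mt-Cytb were lower in RaptorKO, and all 13 such mRNAs had a log2 fold change below 0, with a median of -0.24. The called genes are subunits of complex I and, for mt-Cytb, of complex III. They make up 30.8% of the 13 mRNAs, where 5.68% of all tested genes were called lower. mt-Nd2 had a log2 fold change of -0.42 ± 0.08 (adjusted p = 0.00859). In injured nerves 0 of 13 were called, with a median of -0.21 and 3 at an unadjusted p below 0.05. All 13 again lay below 0, with log2 fold changes of -0.83 to -0.11. Of 74 nuclear subunits of oxidative phosphorylation, 4 were higher in RaptorKO contralateral nerves (5.41%, near the 4.49% of all genes). They were Uqcrh (108 to 118 against 143 to 153 CPM, 0.40 ± 0.07, adjusted p = 0.00661), Atp5a1, Cox4i1, and Cox8a. In injured nerves 0 were called, and 3 had an unadjusted p below 0.05. After injury, 26 rose and 7 fell in controls (35.1% and 9.46%, against 32.4% and 32.9% of all genes). In RaptorKO nerves, 12 rose and 9 fell (16.2% and 12.2%, against 30.5% and 28.5%). Of 16 genes of import, chaperones, and mitochondrial mass, Hspa9, the chaperone that pulls proteins into the matrix, was higher in RaptorKO contralateral nerves (147 to 152 against 163 to 204 CPM, 0.36 ± 0.08, adjusted p = 0.023). That is 6.25% of the list, beside 4.49% of all genes. After injury, 9 of these 16 genes rose and 1 fell in each genotype (56.2% and 6.25%). Their median log2 fold change was 0.48 in controls and 0.40 in RaptorKO nerves, beside 0.33 and 0.28 for the members.

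Regulators known for nuclear genes of mitochondria were measured in the same libraries. Of 15 tested, 3 were higher in RaptorKO contralateral nerves. Pprc1, a coactivator that works with NRF1, measured 26.6 to 30.2 CPM in control and 38.3 to 49.9 CPM in RaptorKO contralateral nerves (0.61 ± 0.13, adjusted p = 0.0144), and was also higher in RaptorKO injured nerves (0.47 ± 0.12, adjusted p = 0.0317). Eif4ebp1, which encodes 4E-BP1, had a log2 fold change of 0.61 (adjusted p = 0.0449). Atf5, a factor of the mitochondrial stress response, measured 45.1 to 52.8 and 55.4 to 81.1 CPM in contralateral (0.52 ± 0.13, adjusted p = 0.0357), but 74.4 to 78.5 and 50.5 to 61.6 CPM in injured nerves (-0.46 ± 0.11, adjusted p = 0.0279). Its interaction was called with a log2 difference of -0.97 (adjusted p = 0.0104). Myc was higher in RaptorKO injured nerves (44 to 51.7 against 75.1 to 88.7 CPM, 0.83 ± 0.12, adjusted p = 0.00177). After injury, 6 of 14 tested regulators rose (42.9%) and 3 fell (21.4%) in controls, against 32.4% and 32.9% of all genes. In RaptorKO nerves 5 of 14 rose (35.7%) and 1 fell (7.14%), against 30.5% and 28.5%. Gabpa, which binds the ETS letters, rose by 0.47 in controls and 0.50 in RaptorKO nerves, and its partner Gabpb2 fell by 0.28 and 0.33. Pprc1, Myc, Eif4ebp1, and Eif4ebp2 rose in both genotypes, and Myc had the largest gains, of 2.36 and 2.79. Atf5 rose in controls (0.62), and Esrra and Ppargc1a fell in controls (-0.83 and -0.79), with adjusted p-values of 0.0724 and 0.0668 in RaptorKO nerves. Nrf1, Gabpb1, Yy1, Atf4, and Ddit3 were called in no comparison, and neither was Mycn, which was tested only in contralateral nerves and for the interaction. Ppargc1b was below the count minimum.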

How the data were processed

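For 13 libraries, sciatic nerve RNA was sequenced as single-end reads (TruSeq Stranded mRNA kit, Illumina HiSeq). The authors trimmed the reads with Trimmomatic and deposited expected counts per gene that RSEM 1.2.22 had estimated on GRCm38, with reads that match several genes shared out. Between 24.93% and 27.95% of the nonzero values per library were not whole. These were rounded, and genes were matched by ID to GENCODE M21 (40550 of 40787). Groups came from the sample labels. Samples of a group came from separate mice by the study's description. Injured and contralateral nerves with equal numbers were taken as the nerves of 1 mouse, since the crush was on 1 side, titles number the mouse, and the study profiled the injured nerves along with their contralateral nerves. Xist counts of 14462 and 15017 were found only in the control nerves numbered 3. The deviations of equally numbered nerves from their group means correlated with r of 0.067, 0.129, and 0.305 in controls and -0.024, 0.211, and 0.168 in RaptorKO. The unpaired model follows the study's test, and the model with the mouse as a replicate block was an alternative. Numbers do not pair mice of different genotypes.

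Counts were analyzed in R 4.3.3 with edgeR 4.0.16 (TMM, quasi-likelihood test), and DESeq2 1.42.0 served as an alternative. Figures came from matplotlib 3.10.9. Genes that did not reach 50 counts in 2 or more of the compared libraries were left out. Only the libraries of a comparison entered its model, except for the interaction, which used all 13. P-values were adjusted by Benjamini-Hochberg over all tested genes. Alternatives were edgeR's exact test (the choice of the study), DESeq2 size factors, TMM without ribosomal protein genes, total counts, no count filter, all libraries in 1 model, other thresholds, a replicate block, and leaving out each library. Standard errors and intervals are those of the log2 fold change. The model was tested on simulated counts.

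The members, the gene lists, and the rule for named genes were chosen with earlier results of these data known. Named were the called members up to 12 (genotype) or 8 (injury) in each direction by size, the 3 with the smallest p where fewer than 3 were called, the 3 with the highest and lowest level per kilobase, the Mrps18 relatives, and Mrps36. Of the other lists these were called genes, up to 3 in each direction between genotypes, all regulators, and all 5 other mitoribosome proteins. Mrps7 beside Mrpl52, Mrpl23, Cox8a, mt-Cytb, Tufm, Tsfm, and Mtif3 were named after their values were seen. Members overlap an annotated gene on the other strand in 36 cases and on the same strand in 13, and the strand setting of the counting is not given in the sources used here. Promoter sequences are those of RefSeq. No window was found for 9 members, and 3 had more than 1. The driver of the Cre transgene is not reported here.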

Additional observations from a re-analysis of the deposited data

Results flagged for a closer look

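In the group of 4 RaptorKO contralateral nerves, replicate 1 stood apart from the other nerves for 2 members. It had the lowest level of Mrpl57, at 5.14 CPM, beside 7.66 to 8.15 CPM in the others. It had the highest level of Mrpl16, at 9.64 CPM, beside 6.42 to 6.60 CPM. Without this nerve, the gain of Mrpl16 after injury in RaptorKO nerves was 0.76 in place of 0.60 on the log2 scale, and it was called either way. Of 37 sets of 4 values examined, 2 stood apart in this way, and chance gives about 1 in 20.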

How the results depend on the processing

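Of the values of named members under the alternatives, 470 of 527 kept their direction and their side of the threshold, 46 lost a call, 11 gained one, and 0 reversed. Between genotypes in contralateral nerves, Mrpl30 was called higher under all 17 alternatives (log2 fold change 0.57 to 0.77). Members called lower there were 1 in place of 0 (Mrps6) with no count filter, DESeq2, edgeR's exact test, and the replicate block, and higher were 3 in place of 1 with the replicate block. Leaving out 1 library gave 0 to 1 lower and 1 to 3 higher. In injured nerves, 1 was lower in place of 0 (Mrpl58) with the exact test and all 13 libraries in 1 model, and 1 higher (Mrpl23) with no count filter, and leaving out 1 library gave 0 to 1 in each direction. After injury in controls, 14 rose and 1 fell at an adjusted p below 0.01, 50 rose and 0 fell with total counts (median 0.53), 2 fell with all 13 libraries, and leaving out 1 library gave 20 to 32 risen and 1 to 3 fallen members. Without control injured replicate 1 it was 1 fallen, and without replicate 2 or 3 it was 2. In RaptorKO nerves, 8 rose and 0 fell at an adjusted p below 0.01, 0 fell with total counts (median 0.43), 1 fell with no count filter, and leaving out 1 library gave 12 to 25 risen and 1 to 4 fallen. The fallen were 1 without RaptorKO contralateral replicate 1 or RaptorKO injured replicate 1 and 4 without RaptorKO contralateral replicate 4. No interaction was called under any alternative. The cause of these changes was not tested.

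With the replicate block, 28 rose and 3 fell in controls, 21 rose and 3 fell in RaptorKO nerves, and 0 interactions were called. Among the named members after injury, the block ended the calls of Mrpl47 in controls and Mrpl16 in RaptorKO nerves and changed no other. Between genotypes, equal numbers mark different mice and the block is only another model. Members held 32 to 1020 counts per library, which left a 95% interval of the log2 fold change with a median distance from the estimate to either bound of 0.34 to 0.38 in the 4 comparisons and 0.51 for the interaction.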
